A study of Homo sapiens with 4 samples.

Results

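The snoRNA host genes are transcription units whose introns carry small nucleolar RNAs and whose spliced transcripts, in most cases, encode no protein. Members were all genes with a symbol SNHG plus a number, and GAS5, ZFAS1, EPB41L4A-AS1, DANCR and TAF1D. This gave 32 of 57768 genes in the files, 27 with an SNHG symbol and 5 named beside them, of which 31 were annotated as lncRNA and TAF1D as protein-coding. SNHG4, which the rule also takes, had no row in the files. In RefSeq, 30 of the 32 hold at least 1 named snoRNA or scaRNA gene. The exceptions are SNHG27 and SNHG28, in each of which the GRCh37 annotation places 1. RNA was sequenced from 2 WT libraries and 2 C/EBPβ enh-/- libraries of cells labelled HepG2, an established human liver cancer line, grown in Dulbecco's modified Eagle's medium with fetal bovine serum. The C/EBPβ enh-/- cells carry a CRISPR/Cas9 deletion of both alleles of an enhancer of CEBPB, whereas the WT cells keep both. The labels do not say whether the libraries of a genotype come from separate cultures or clones, so tests measure only the spread between these libraries, which may be technical. Each value is an FPKM, the number of fragments scaled by transcript length and library size. Levels can thus be set side by side between genes, with a limit for the short snoRNA genes given below.

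Box C/D snoRNAs guide methylation of the ribose in ribosomal RNA and box H/ACA snoRNAs guide the change of uridine to pseudouridine, whereas scaRNAs guide the same reactions on spliceosomal RNAs in Cajal bodies. In human cells nearly all of them are cut out of introns, so 1 primary transcript gives both a snoRNA and a spliced host RNA. The spliced RNAs of several hosts, GAS5 among them, are known targets of nonsense-mediated decay, and many hosts begin with a terminal oligopyrimidine tract, the start found on ribosomal protein mRNAs. GAS5 was named for its accumulation in growth-arrested cells, and several SNHG RNAs are studied as lncRNAs of liver cancer.

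The start sites are shown because that tract is the sequence feature for which host genes are known. RefSeq promoters on GRCh38.p14 were found for 28 of the 32 members, and not for SNHG6, SNHG25, SNHG15 and SNHG9. A tract, here a C as the first transcribed base followed by at least 4 C or T, was present in 7 of these 28 (25.0%) and in 1429 of all 35116 RefSeq promoters (4.07%). The 7 members were SNHG12, SNHG32, SNHG5, TAF1D, SNHG19, ZFAS1 and SNHG18, the last of which was almost absent from these cells. The windows hold 10 bases before and 20 bases from the annotated start, 5′ to 3′, and capitals mark the unbroken run of C and T from the first transcribed base. SNHG1 is added as a host with a shorter run of 3 letters, and GAS5 as one whose RefSeq start has none.
SNHG12 (chr1:28581854-28581883, minus strand): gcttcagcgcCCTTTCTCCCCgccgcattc
TAF1D (chr11:93741476-93741505, minus strand): aatagccaacCCTTTTCTTCCgcacggttg
SNHG32 (chr6:31834906-31834935, plus strand): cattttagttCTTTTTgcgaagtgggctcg
SNHG19 (chr16:2155339-2155368, minus strand): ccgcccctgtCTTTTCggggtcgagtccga
SNHG5 (chr6:85678714-85678743, minus strand): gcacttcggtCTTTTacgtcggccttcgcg
ZFAS1 (chr20:49278632-49278661, plus strand): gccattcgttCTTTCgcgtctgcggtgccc
SNHG1 (chr11:62855866-62855895, minus strand): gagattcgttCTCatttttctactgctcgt
GAS5 (chr1:173869026-173869055, minus strand): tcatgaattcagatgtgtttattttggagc
The letters describe the annotated start only, and the start used in these cells was not measured.

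The cells were checked first. CEBPB, which encodes C/EBPβ, had FPKM values of 30.6 and 19.2 (WT) and 12.4 and 11.8 (C/EBPβ enh-/-). Its log2 fold change was −0.94 (adjusted p = 0.125, limma), which did not pass the threshold of 0.05. The fold change was −0.62 without WT library 1 and −1.27 without WT library 2. All 15 hepatocyte markers examined, ALB, AFP, APOA1 and HNF4A among them, were under an FPKM of 1 in every library, with summed levels of 0.567 to 0.945, so the cells are called by their label only. Of 6 fibroblast markers 3 reached a mean FPKM of 1, COL3A1, COL1A1 and PDGFRB, and of 6 blood cell markers only CD68 did. The summed FPKM was 484072.7 to 614111.2 per library, and the 5 highest genes held 18.8% to 35.1% of it, with the top shares in the C/EBPβ enh-/- libraries.

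The host genes covered a wide range of levels. Of the 32 members, 28 reached a mean FPKM of 1 and entered the fit over 12491 genes, 10 of them with a mean of at least 100, 13 between 10 and 100, and 5 between 1 and 10. SNHG3, host of SNORA73A and SNORA73B, was by far the most abundant, with FPKM values of 5406 and 4752 (WT) and 6073 and 3139 (C/EBPβ enh-/-). It held 59.2% to 71.3% of the summed FPKM of all members. Its values overlapped between genotypes, since the C/EBPβ enh-/- libraries lay on either side of both WT libraries. SNHG3 lies on chromosome 1 from 28832492 to 28837404 on GRCh37 (plus strand) and shares exon sequence on the same strand with RCC1, a chromatin-bound exchange factor of the GTPase RAN, so fragments from the shared part could have been assigned to either gene. RCC1 had FPKM values of 43.7, 44.8, 27.9 and 23.6 in the same order of libraries, far below those of SNHG3.

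GAS5 followed, with FPKM values of 900.4 and 461 (WT) and 332 and 345 (C/EBPβ enh-/-), and then SNHG29, with 535, 406, 258 and 270.4. SNHG32, SNHG7, ZFAS1, SNHG25, SNHG1, SNHG6 and SNHG8 made up the rest of the members with a mean of at least 100. At the low end, SNHG22 had 1.06, 0.820, 1.23 and 0.993. The 4 members left out of the fit were SNHG31, with FPKM values between 0.302 and 0.616, SNHG28, between 0.150 and 0.380, SNHG27, at or below 0.116, and SNHG18, which was listed at 0 in all but WT library 2.

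**Figure D1:**
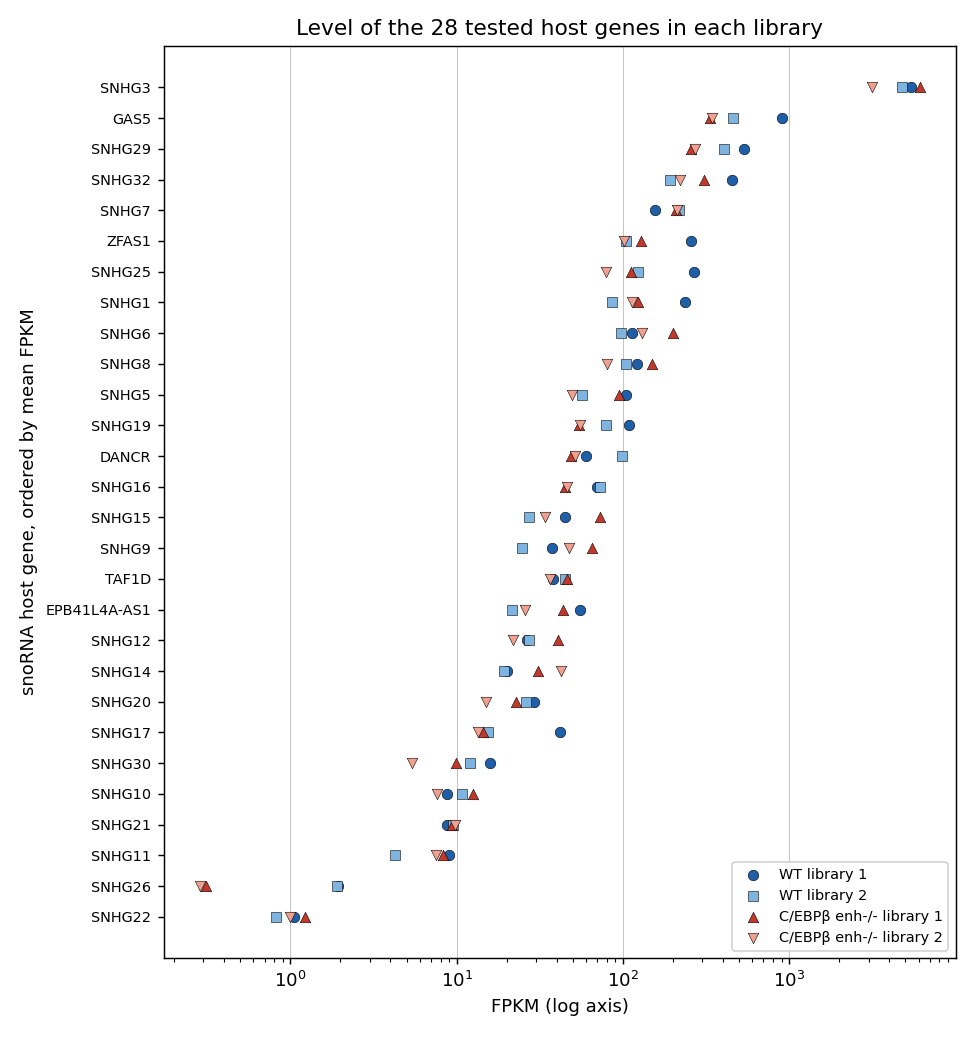
FPKM (log axis) of the 28 tested host genes in each of the 4 libraries, with 1 row per gene ordered by mean level and 1 symbol per library. SNHG3 stands apart at 3139 to 6073, SNHG26 shows both C/EBPβ enh-/- values below both WT values with close replicates, and for GAS5, SNHG1, SNHG17, ZFAS1 and SNHG25 the symbol of WT library 1 stands to the right of the other 3.

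The first comparison asked which host genes differ between C/EBPβ enh-/- and WT cells. None of the 28 members passed an adjusted p of 0.05 in limma in either direction, and at an unadjusted p under 0.05 there were 7 lower and 2 higher members. Of all tested genes, 1.21% were called lower and 0.248% higher at the adjusted threshold, and 16.9% lower and 3.86% higher without adjustment, so the shares of members, 25.0% and 7.14%, rest on few genes beside this background. The genotypes did not overlap for 13 members, with the WT libraries on top for 10 of them (35.7%, beside 37.5% of all tested genes) and the C/EBPβ enh-/- libraries on top for 3 (10.7%, beside 15.1%). The median log2 fold change was −0.17 over the members and −0.14 over all tested genes. The members' median varied with the libraries chosen. Between single libraries of each genotype, in pairs that share libraries, it ran from −0.69 (C/EBPβ enh-/- library 2 against WT library 1) to 0.25 (C/EBPβ enh-/- library 1 against WT library 2), beside −0.20 to −0.10 over all tested genes. With 1 library left out it was −0.45 without WT library 2 and without C/EBPβ enh-/- library 1, −0.02 without WT library 1, and 0.11 without C/EBPβ enh-/- library 2, where its sign turned. Leaving out WT library 1 gave 3 lower and 2 higher members at an unadjusted p under 0.05 in limma (9.43% and 1.93% of all tested genes), and leaving out WT library 2 gave 8 and 0 (10.4% and 2.38%). Without C/EBPβ enh-/- library 1 they were 6 and 1 (12.8% and 2.68%), and without library 2 they were 3 and 3 (15.1% and 7.41%). In these fits the genotype with 1 library left is assumed to vary like the other one, since its own spread is not measured. In bulk RNA, fewer cells with a transcript and less of it per cell cannot be told apart. Adjusted p-values of members ran from 0.0883 to 0.988, and an exact permutation test of 2 libraries against 2 cannot give a two-sided p below 0.333.

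Among the members with lower C/EBPβ enh-/- values, the genotype difference was 1.67 times the larger difference between libraries of 1 genotype for SNHG19, and more than that for SNHG26, SNHG16 and SNHG29. SNHG26, host of the box C/D gene SNORD93 on chromosome 7 (22893745 to 22912571, plus strand, GRCh37), had FPKM values of 1.93 and 1.91 (WT) and 0.313 and 0.286 (C/EBPβ enh-/-). Both C/EBPβ enh-/- values were thus far below both WT values, with a ratio of means of 0.156. Its log2 fold change was −1.17 (adjusted p = 0.0883, standard error 0.28), and on the log2(FPKM + 1) scale the change of such a low gene is understated. SNHG26 reached a mean FPKM of 1 (1.11) only through its WT values, so its place among the tested members rests on the same values as the difference, and its p-value is given as a description. Without a filter its adjusted p was 0.188, and with a mean FPKM of at least 5 it was not tested.

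SNHG16, host of SNORD1A, SNORD1B and SNORD1C, had FPKM values of 70.3 and 72.7 (WT) and 44.9 and 46.1 (C/EBPβ enh-/-). The libraries of each genotype were close together and the genotypes did not overlap, with a log2 fold change of −0.64 (adjusted p = 0.151, standard error 0.20). SNHG29, host of SNORD49A, SNORD49B and SNORD65, was at the values given above, with both C/EBPβ enh-/- libraries below both WT libraries and a log2 fold change of −0.82 (adjusted p = 0.116, standard error 0.22). SNHG19, the short host of SNORD60 with a pyrimidine tract at its start, had FPKM values of 109.2 and 79.5 (WT) and 54.4 and 55.1 (C/EBPβ enh-/-). Its log2 fold change was −0.76 (adjusted p = 0.148, standard error 0.24).

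GAS5, SNHG25 and SNHG17 also had both C/EBPβ enh-/- values below both WT values, but the size of the difference came largely from WT library 1. For GAS5, host of 10 box C/D genes in RefSeq, the log2 fold change came to −0.93 (adjusted p = 0.177, standard error 0.33), and to −0.44 without WT library 1. SNHG25, host of SNORD104, had FPKM values of 266 and 123 (WT) and 112 and 79.1 (C/EBPβ enh-/-). Its log2 fold change was −0.93 (adjusted p = 0.232, standard error 0.38), and −0.38 without WT library 1. SNHG17, host of the SNORA71 genes, had FPKM values of 41.8 and 15.5 (WT) and 14.4 and 13.5 (C/EBPβ enh-/-), so WT library 2 was close to both C/EBPβ enh-/- libraries. Its log2 fold change was −0.83 (adjusted p = 0.316, standard error 0.43), and −0.14 without WT library 1. Without WT library 2 the values were −1.41 for GAS5, −1.49 for SNHG25 and −1.52 for SNHG17.

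The other 3 members with both C/EBPβ enh-/- values below both WT values were SNHG30, DANCR and SNHG20. SNHG30, host of SNORD7, had FPKM values of 15.8 and 12.1 (WT) and 9.94 and 5.36 (C/EBPβ enh-/-), a log2 fold change of −0.83 with an adjusted p of 0.199. DANCR, a lncRNA named for its part in holding back differentiation and host of SNORA26, had 60.2 and 98.7 (WT) and 49.1 and 51.8 (C/EBPβ enh-/-), a log2 fold change of −0.60 with an adjusted p of 0.275. Here WT library 2 was the high one, and without it the log2 fold change was −0.25, and −0.95 without WT library 1. SNHG20, host of SCARNA16, had 29.1 and 26.3 (WT) and 22.7 and 15.0 (C/EBPβ enh-/-), a log2 fold change of −0.56 with an adjusted p of 0.276. Leaving out C/EBPβ enh-/- library 2 gave −0.28 for SNHG20 and −0.44 for SNHG30, and leaving out library 1 gave −0.84 for SNHG20.

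Both C/EBPβ enh-/- values lay above both WT values for SNHG14, SNHG9 and SNHG6. SNHG14 is the long host of the SNORD115 and SNORD116 clusters in the imprinted SNRPN region, read from the paternal chromosome and antisense to UBE3A. Its FPKM values were 20.2 and 19.4 (WT) and 30.9 and 42.2 (C/EBPβ enh-/-), with a log2 fold change of 0.84 (adjusted p = 0.123, standard error 0.24). Of the genes that overlap it, SNRPN and UBE3A were examined. SNRPN, which shares exon sequence with it on the same strand and encodes a spliceosomal protein, had a log2 fold change of 0.03 (9.59 and 11.4 against 10.9 and 10.5), and UBE3A, a ubiquitin ligase on the opposite strand, had 0.04 (25.4 and 18.9 against 23.6 and 21.5). SNHG14 spans 441754 bases, and its FPKM does not say which part of this locus the fragments came from.

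SNHG9, host of SNORA78, had FPKM values of 37.5 and 24.8 (WT) and 65.4 and 47.7 (C/EBPβ enh-/-), with a log2 fold change of 0.85 (adjusted p = 0.162, standard error 0.28), and 0.56 without WT library 2. SNHG6, host of SNORD87, had 112.9 and 97.1 (WT) and 199 and 131 (C/EBPβ enh-/-), with a log2 fold change of 0.62 (adjusted p = 0.248, standard error 0.27). For SNHG6 the C/EBPβ enh-/- libraries differed from each other by nearly as much as the genotypes did, and leaving out C/EBPβ enh-/- library 1 gave 0.32.

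These 10 lower and 3 higher members had the same direction under each of the 3 scalings. Since their genotypes do not overlap, leaving out a library could not turn it, and nothing is read from that. The other 15 members overlapped between genotypes, and 13 of them changed direction in at least 1 of the 12 alternatives. The exceptions were SNHG21 and SNHG22, whose log2 fold changes were 0.06 and 0.12. Of the 3 scalings, the common protein-coding total and the centring moved the median of all tested genes by more than 0.1 on the log2 scale, and the common total did not. Rescaled to the same protein-coding total, the median was 0.05 over all tested genes and 0.06 over the members, and 12 rather than 18 members had a log2 fold change below 0. In that scaling 7 members lay below both WT values (23.8% of all tested genes) and 7 above (29.6%). At an unadjusted p under 0.05 in limma it gave 2 lower and 3 higher members, beside 9.45% and 9.94% of all tested genes. The centring gave 3 and 3, beside 10.1% and 9.14%, so the lean to lower values was absent under both. With the common total there were 8 and 3, beside 14.9% and 3.99%.

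The second comparison set library 1 beside library 2 inside each genotype. For 20 of the 28 members (71.4%), the genotype difference was smaller than the larger of the 2 differences within a genotype, beside 59.7% of all tested genes. WT library 1 was higher than WT library 2 in 21 of 28 members (75.0%), beside 48.9% of all tested genes, with a median difference of 0.30 on the log2 scale, where all tested genes had a median of −0.01. Other lncRNA genes also leaned this way, with 118 of the 171 averaging at least 5 FPKM (69.0%) higher in WT library 1 and a median difference of 0.22. In 6 members (21.4%) it was higher by at least 1, beside 1.84% of all tested genes, and in no member was WT library 2 higher by as much, beside 1.51%. There is 1 library on each side of this comparison, so no test of it was possible.

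The 6 members were SNHG1, SNHG17, EPB41L4A-AS1, ZFAS1, SNHG32 and SNHG25. SNHG1, long known as a host with noncoding exons and the carrier of 8 box C/D genes in RefSeq, had FPKM values of 237 and 85.9 in the WT libraries, a ratio of 2.76, against 123 and 113 (C/EBPβ enh-/-). ZFAS1, transcribed away from ZNFX1 and host of SNORD12, SNORD12B and SNORD12C, had 257.5 and 103.7 (WT) and 128 and 101.3 (C/EBPβ enh-/-). In both genes WT library 2 lay near the C/EBPβ enh-/- libraries and WT library 1 stood above the other 3. The log2 fold change of the genotypes was −0.28 for SNHG1 (adjusted p = 0.760) and −0.52 for ZFAS1 (adjusted p = 0.522), and without WT library 1 both turned positive, at 0.45 and 0.14.

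SNHG32, host of SNORD48 and SNORD52 in the major histocompatibility region of chromosome 6, had FPKM values of 450.0 and 191 (WT) and 309 and 219.8 (C/EBPβ enh-/-). EPB41L4A-AS1, host of SNORA13, had 55.3 and 21.6 (WT) and 43.4 and 25.9 (C/EBPβ enh-/-). For these genes C/EBPβ enh-/- library 1 also lay above library 2, by 0.49 for SNHG32 and 0.73 for EPB41L4A-AS1 on the log2 scale. Just below a difference of 1 between the WT libraries came GAS5 at 0.96, SNHG11 at 0.92 and SNHG5 at 0.87. SNHG11, host of SNORA71E and SNORA60, had 8.99 and 4.29 (WT) and 8.30 and 7.48 (C/EBPβ enh-/-), so here WT library 2 was the low one.

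Not every host took part. SNHG16, SNHG26, SNHG14 and SNHG12 differed by at most 0.06 on the log2 scale between the WT libraries. SNHG7, host of SNORA17A and SNORA17B, had 156 and 217 (WT) and 209.8 and 211 (C/EBPβ enh-/-), so that WT library 1 was its lowest value. DANCR was likewise lower in WT library 1, by 0.70 on the log2 scale, and SNHG10, TAF1D and SNHG21 by less.

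Between the C/EBPβ enh-/- libraries, library 1 was higher in 20 of 28 members (71.4%), beside 58.9% of all tested genes, with a median difference of 0.33 beside 0.09. The summed FPKM was 614111.2 in library 1 and 484072.7 in library 2. The difference reached 1 for SNHG15 only, a host of SNORA9 with FPKM values of 72.6 and 34.1 (2.83% of all tested genes), and for no member in the other direction (2.24%). Under each of the 3 scalings no member reached it, SNHG15 included. SNHG15 also lay higher in WT library 1 (45.1 against 27.2). SNHG3, SNHG5, SNHG8 and SNHG12 followed with 0.87 to 0.95. SNHG8, host of SNORA24, had 122 and 104.0 (WT) and 150.1 and 80.4 (C/EBPβ enh-/-), and SNHG5, host of SNORD50A and SNORD50B, had 104.5 and 56.8 (WT) and 95.3 and 49.5 (C/EBPβ enh-/-). SNHG12, host of SNORA44, SNORA61 and SNORA16A beside SNORD99, had 26.5 and 27.3 (WT) and 40.5 and 21.7 (C/EBPβ enh-/-). For all 3, the spread between the C/EBPβ enh-/- libraries exceeded the genotype difference. TAF1D, a subunit of the factor that recruits RNA polymerase I to ribosomal DNA, had overlapping genotypes, at 37.9 and 44.8 (WT) and 45.8 and 36.4 (C/EBPβ enh-/-).

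**Figure D2:**
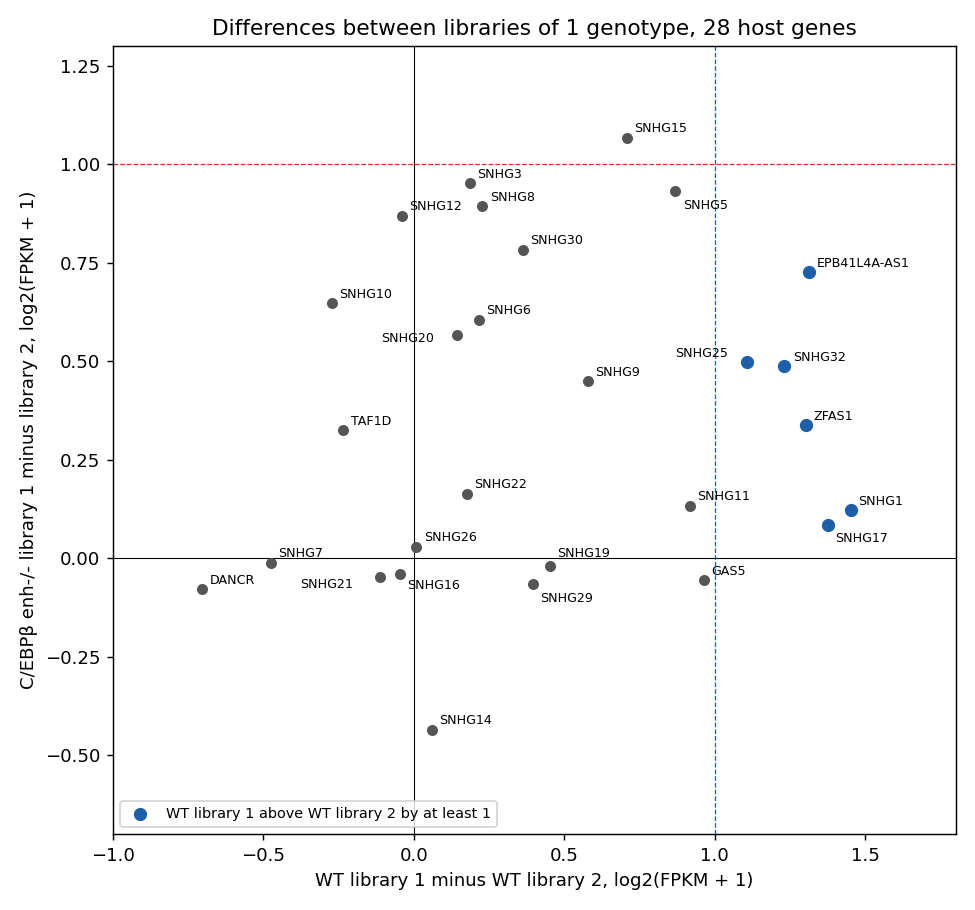
Difference between library 1 and library 2 within WT (horizontal axis) and within C/EBPβ enh-/- cells (vertical axis), in log2(FPKM + 1), with 1 point per host gene and dashed lines at a difference of 1. The 6 blue points to the right of the vertical dashed line are SNHG1, SNHG17, EPB41L4A-AS1, ZFAS1, SNHG32 and SNHG25, SNHG15 alone lies above the horizontal one, and no gene is below −1 on either axis.

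The members were then split by what they host and how they start, as a description. The 12 tested hosts of box C/D genes only had a median difference between the WT libraries of 0.42 on the log2 scale, and the 9 hosts of box H/ACA genes only had 0.58. The 4 tested members with scaRNA genes only, SNHG20, SNHG10, SNHG21 and SNHG22, had 0.02, and the 3 with both box kinds, GAS5, TAF1D and SNHG12, had −0.04. The median FPKM was lowest for the scaRNA hosts, at 9.62. By genotype the median log2 fold change was −0.58 over the hosts of box C/D genes only, −0.03 over the box H/ACA hosts, −0.01 over the hosts of both kinds and 0.03 over the scaRNA hosts. Without WT library 1, the box C/D hosts SNHG32, ZFAS1, SNHG1 and SNHG5 turned positive (0.44, 0.14, 0.45 and 0.27). SNHG6 and SNHG14 stayed positive and the others of that kind negative. Among the box H/ACA hosts, SNHG8 and EPB41L4A-AS1 turned positive and SNHG7 negative. These medians were not computed with a library left out. The 6 tested members with a pyrimidine tract had a median WT difference of 0.66, with 2 of 6 at 1 or more, and the 18 tested members with a RefSeq start but no tract had 0.18, with 3 of 18. Of the members that were high in WT library 1, SNHG1 and SNHG17 are among those without a tract, and SNHG32 and ZFAS1 among those with one.

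Other genes of the pathway were described from lists. Of 40 protein-coding snoRNA hosts, ribosomal protein and translation factor genes for the most part, none passed the adjusted threshold, 15 were lower and none higher at an unadjusted p under 0.05, and 30 lay below both WT values. Over all tested genes these shares were 16.9%, 3.86% and 37.5%. The median log2 fold change of the coding hosts was −0.40, beside −0.14 over all tested genes. The latter median moved to 0.05 with the common protein-coding total. Medians of this and the next lists were not computed under that scaling. The most abundant coding hosts were RACK1, with FPKM values of 1739 and 1802 (WT) and 1223 and 1459 (C/EBPβ enh-/-), and RPL37, with 1789 and 1804 against 1145 and 1303. Between the WT libraries these coding hosts were even, with a median difference of −0.05 and none higher by at least 1 in WT library 1, where the members had 6 of 28. A single coding host was higher by that much in WT library 2, HSPA8, a heat shock protein gene named here after its values were seen, with 131 and 957 (WT) and 449.7 and 781 (C/EBPβ enh-/-).

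The genes of the proteins that bind the snoRNAs were examined too, by their RNA only, and none of them passed the threshold. Of the box C/D core, SNU13 had a log2 fold change of −0.65, NOP58 of −0.54, FBL, the methyltransferase, of −0.51, and NOP56 of 0.15, which gave a median of −0.53 over the 4 genes. The 4 box H/ACA core genes, NHP2, NOP10, DKC1 (the pseudouridine synthase) and GAR1, had a median of −0.22, and 10 assembly factors had −0.31, with RUVBL2, RUVBL1 and PIH1D1 the most abundant. The 15 factors of nonsense-mediated decay had a median log2 fold change of −0.17 between genotypes and a median difference of 0.01 between the WT libraries. EIF4A3, a helicase of the exon junction complex and the most abundant of these 15, had FPKM values of 56.9 and 75.4 (WT) and 57.3 and 38.1 (C/EBPβ enh-/-). None of the core, assembly or decay genes was higher by at least 1 in WT library 1.

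Targets of ATF4, the transcription factor of the amino acid and integrated stress responses, moved with WT library 1. This list was written after the values had been seen. Of 36 tested genes, 33 were higher in WT library 1 than in WT library 2, 19 of them (52.8%) by at least 1 on the log2 scale, and the summed FPKM was 4639 in WT library 1 and 2365 to 2846 in the other 3. WT library 1 was the highest of the 4 libraries for 30 of the 36, and C/EBPβ enh-/- library 1 for 4. The most abundant was SLC3A2, the heavy chain of an amino acid transporter, with FPKM values of 405 and 262 (WT) and 410.3 and 303 (C/EBPβ enh-/-), followed by SLC7A5, its light chain, with 395 and 283 (WT) and 175 and 302 (C/EBPβ enh-/-). For SLC3A2 WT library 1 and C/EBPβ enh-/- library 1 were thus close together and above the others. DDIT3, which encodes the stress factor CHOP, also peaked in C/EBPβ enh-/- library 1, at 78.7 and 19.3 (WT) and 115 and 22.9 (C/EBPβ enh-/-). ASNS, asparagine synthetase, had FPKM values of 198 and 43.9 (WT) and 43.5 and 44.2 (C/EBPβ enh-/-), and TRIB3, a pseudokinase gene induced by ATF4, had 145 and 37.6 (WT) and 54.5 and 36.4 (C/EBPβ enh-/-). For ASNS and TRIB3, as for SNHG1 and ZFAS1, WT library 1 was above the other 3. DDIT3, ASNS and TRIB3 were chosen as examples after their values were seen. The part of this difference in the values of the host genes was not tested. Other lncRNA genes averaging at least 5 FPKM were higher by at least 1 in WT library 1 in 13 of 171 cases (7.60%), beside 1.67% of all genes at that level.

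The snoRNA genes inside the members gave a second readout of the same loci. The annotation used here placed 107 snoRNA and scaRNA genes of the files wholly inside 22 of the members, 72 of them inside SNHG14. All 88 box C/D genes, 59 to 102 bases long, were listed at 0 in all 4 libraries, and so were the 88 genes of at most 100 bases whatever their kind. Of the 19 genes over 100 bases 13 had a value above 0 in at least 1 library, and 12 reached a mean FPKM of 1. A value of 0 here says only that the gene was listed at 0, since the size of the fragments kept in these libraries is not given in the sources used here. For the same reason, levels of such short genes cannot be set securely beside those of their hosts.

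The sequences of SNORA73B, SNORA71A and SNORD78 are shown as the inner genes of SNHG3, SNHG17 and GAS5, and because they differ in length. They are written 5′ to 3′ from GRCh37 on the strand of the gene, with capitals for the ACA box 3 bases before the end of SNORA73B and for the D box CTGA of SNORD78. The annotated end of SNORA71A has no ACA at that distance, so nothing is marked in it.
SNORA73B (chr1:28835071-28835274, plus strand): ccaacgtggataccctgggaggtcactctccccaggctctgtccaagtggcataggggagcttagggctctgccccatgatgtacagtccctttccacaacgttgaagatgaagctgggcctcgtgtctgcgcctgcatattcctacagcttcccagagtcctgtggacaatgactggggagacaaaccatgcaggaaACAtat
SNORA71A (chr20:37055952-37056085, minus strand): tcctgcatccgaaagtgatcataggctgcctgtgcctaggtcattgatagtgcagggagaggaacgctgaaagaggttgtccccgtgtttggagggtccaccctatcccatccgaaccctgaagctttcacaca
SNORD78 (chr1:173834760-173834824, minus strand): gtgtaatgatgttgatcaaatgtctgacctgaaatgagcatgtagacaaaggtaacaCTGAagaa
SNORA73B, of 204 bases and inside an intron of SNHG3, had FPKM values of 1463 and 1357 (WT) and 1327 and 807 (C/EBPβ enh-/-), with a log2 fold change of −0.44 (adjusted p = 0.396). As for its host, C/EBPβ enh-/- library 2 was the lowest of the 4. SNORA71A, of 134 bases and overlapping an exon of SNHG17, had 1615 and 1473 (WT) and 1987 and 1238 (C/EBPβ enh-/-), a log2 fold change of 0.02 with an adjusted p of 0.968. Its host differed 2.70-fold between the WT libraries, whereas SNORA71A itself differed little there. SNORD78, of 65 bases, was at 0 throughout, although GAS5 was the second most abundant member.

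SCARNA13 inside SNHG10 had FPKM values of 544 and 542 (WT) and 683 and 444 (C/EBPβ enh-/-), against 7.60 to 12.5 for its host. C/EBPβ enh-/- library 1 was higher than library 2 for both the small RNA and the host, as for 58.9% of all tested genes. SCARNA13 overlaps an exon of SNHG10, so the values of the gene and its host may share fragments. The other members of the SNORA71 family inside SNHG17 gave lower values, 80.1 to 182 for SNORA71D, 28.3 to 84.2 for SNORA71C and 3.19 to 6.97 for SNORA71B, and fragments of such near-identical copies may be split between them. SCARNA17 inside SNHG22 had 33.9 to 43.3. SNORA26, SNORA13, SNORA40, SNORA18 and SNORA70 were listed at 0 in at least 1 library. None of the 12 tested inner genes passed the adjusted threshold in limma, and at an unadjusted p under 0.05 there was 1 lower and none higher (16.9% and 3.86% of all tested genes).

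Exons of 22 of the 32 members overlap those of another annotated gene, genes annotated as snoRNA, scaRNA or miRNA left aside, on the same strand for 8 and on the opposite strand for 18 of them. Among the members whose values are given above, GAS5 overlaps GAS5-AS1, ZFAS1 overlaps ZNFX1, and SNHG29 overlaps LRRC75A, each on the opposite strand. Whether the libraries keep the strand is not given in the sources used here, and without strand such fragments cannot be told apart. SNHG1, SNHG25, SNHG19, SNHG15, SNHG9 and SNHG11 have no such overlap in this annotation. Exons of SNHG17 overlap SNORA71A, SNORA71C and SNORA71D on the same strand, so fragments there could have been assigned to either the host or the small RNA. The same holds for SNHG10 (SCARNA13), SNHG22 (SCARNA17), DANCR (SNORA26), EPB41L4A-AS1 (SNORA13) and TAF1D (SNORA8, SNORA18 and SNORA40).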

How the data were processed

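The authors deposited 1 FPKM value per gene and library, and their processing notes name hg19, TopHat2 2.0.13, Cufflinks and edgeR without a role. The fit used log2(FPKM + 1) of the 12491 genes whose FPKM averaged 1 or more. It was made with lmFit and trended eBayes of limma 3.58.1 (R 4.3.3), and two-sided p-values were adjusted over these genes by Benjamini-Hochberg, with 0.05 as the threshold. Read counts were not used, so the depth is unknown and the precision rests on n = 2. The members, lists and comparisons were chosen with earlier results of these data known, and the ATF4 list after values of WT library 1 were seen. Every member is named, and of other lists some of the genes with the highest mean FPKM, while further genes, such as ASNS and TRIB3, are overlaps or examples chosen after their values were seen. Positions came from GRCh37 with GENCODE release 44 lifted to it, which is newer than the identifiers of the files. The snoRNA genes per host and start windows came from RefSeq on GRCh38.p14. The fit was also run on simulated data with normal noise and added shifts, which held no library or scaling effects. Alternatives covered trend, pseudocount, filter, scaling, replicate block and left-out libraries. Python 3.11.15, pandas 2.3.3, numpy 2.4.6 and matplotlib 3.10.9 made the tables and figures.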

Additional observations from a re-analysis of the deposited data

How the results depend on the processing

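In all 12 alternatives no member passed the adjusted threshold of 0.05 in limma, and at an unadjusted p under 0.05 there were 2 to 8 lower and 0 to 3 higher members, beside 4.60% to 18.5% and 1.92% to 9.94% of all tested genes. The median over the members, −0.17, moved to 0.06 with a common protein-coding total, to 0.01 when libraries were centred on their median, and to −0.45 to 0.11 with 1 library left out. Without WT library 1, 14 of 28 members had a log2 fold change below 0, and the median was −0.02. Over all tested genes the median was 0 without a filter, 0.055 with the protein-coding total, 0.034 when centred and −0.19 to −0.10 with 1 library left out. Genes called lower numbered 151, and 0 without a filter, 61 with a common total, 57 with the protein-coding total, 68 when centred, 93 with the replicate block and 9 to 22 with 1 library left out. Genes called higher numbered 31, and 0 without a filter, 20 with a mean FPKM of at least 5 and 3 to 20 with 1 library left out. Without a filter, 2657 genes were lower and 1107 higher at an unadjusted p under 0.05 in limma. Of all genes called, 83.0% were lower, and 72.6%, 66.3% and 68.7% under the common total, the protein-coding total and the centring, and 42.9% without C/EBPβ enh-/- library 1 and 51.3% without library 2. With 1 library left out, the lone library of a genotype is assumed to vary like the other genotype. Across genes, the deviations of equal replicate numbers had a correlation of 0.0094. Whether libraries of equal number share a culture or preparation was not tested. The replicate block changed no member's call. With the protein-coding total, the log2 fold change turned to 0.012 for SNHG3, 0.054 for SNHG32, 0.19 for SNHG8, 0.060 for SNHG5, 0.21 for TAF1D and 0.17 for EPB41L4A-AS1. When centred, it turned to 0.0021 for SNHG32, 0.14 for SNHG8, 0.011 for SNHG5, 0.16 for TAF1D and 0.13 for EPB41L4A-AS1, and with a common total to −0.0034 for SNHG10. With 1 library left out, it ran from −0.69 to 0.26 for SNHG3, −0.79 to 0.44 for SNHG32, −0.045 to 0.43 for SNHG7, −1.17 to 0.14 for ZFAS1, −1.01 to 0.45 for SNHG1, −0.48 to 0.41 for SNHG8. It ran from −0.63 to 0.30 for SNHG5, −0.040 to 1.03 for SNHG15, −0.17 to 0.15 for TAF1D, −0.70 to 0.61 for EPB41L4A-AS1, −0.30 to 0.57 for SNHG12, −0.31 to 0.33 for SNHG10, −0.17 to 0.75 for SNHG11. Counts chosen after seeing the data were 6 to 7 members at least 1 higher in WT library 1, with 0.469% to 3.17% of all genes, over pseudocount, filter and scaling. At least 1 higher in C/EBPβ enh-/- library 1 were 0 members under each of the 3 scalings, and above both WT values were 7 with the protein-coding total and 6 when centred, beside 29.6% and 28.1% of all tested genes. Below both were 7 and 8, beside 23.8% and 25.2%. The cause of these shifts was not tested.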
